A study of Mus musculus with 435 samples.

Results

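Lin28b, Hmga2, Hmga1, Igf2bp1, Igf2bp2 and Igf2bp3 are the 6 genes described here, of 16459 rows of the expression table. They were taken by name, cell by cell, and all 6 were present. LIN28B is an RNA-binding protein that stops precursors of the let-7 microRNAs from maturing. Mature let-7 binds the 3′ UTR of its target messages and lowers them, and HMGA2, the IGF2BP proteins and LIN28B itself are among its best-known targets. HMGA1 and HMGA2 are small chromatin proteins that bind AT-rich DNA, and HMGA2 is abundant in embryos and scarce in most adult tissues. IGF2BP1 to IGF2BP3 bind messages such as those of Igf2 and Actb and affect their stability, transport and translation.

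The cells came from XY gonads of mouse embryos of mixed background that carry an Nr5a1-eGFP reporter, in which eGFP follows a gene active in the somatic cells of the gonad. Living eGFP-positive cells were sorted with Draq7, captured singly on a microfluidic chip and sequenced from poly-A RNA at 5 stages between embryonic days E10.5 and E16.5. No group carried a further mutation or treatment. There was 1 capture at E10.5 and there were 2, described as independent, at each of the 4 later stages (E11.5, E12.5, E13.5, then E16.5). How many embryos entered a capture is not stated in the labels. After filtering 396 cells remained, 30 to 59 per capture. Values are RPKM, reads scaled by gene length and library size, so levels can be compared between genes as far as their reads were assigned alike. Gapdh averaged 1.56 to 6.99 RPKM over captures, beside 1772 to 6853 RPKM for Actb, and the reason was not tested. A capture mean is the mean RPKM over its cells, and captures were the replicates of every test.

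Cells of E10.5 and of E13.5 were labelled with a depth of 25 M (mega) reads, the others with 10 M, and the first E13.5 capture used a medium chip where all others used a small one. The depth implied by the smallest steps of the values had a median of 2.19 to 8.06 M reads per cell over captures. At that depth 1 RPKM of a member stood for about 4.66 to 78.03 reads, fewest for Hmga1, the shortest of the 6. Nr5a1 reached 1 RPKM in 55.9% of E10.5 cells, against 70% to 94.1% in later captures, and eGFP in 85.7% to 100% of cells of each capture. Gata4, another gonad marker, was at 1 RPKM or more in 49.2% of E10.5 cells. Germ-cell-like cells made up 13 of 37 cells of the second E12.5 capture and 2 cells elsewhere.

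The let-7 link can be seen in the sequences. The let-7 family shares its seed, bases 2 to 8 of the mature microRNA, which pairs with the target. RefSeq (GRCm38.p6) held 9 distinct mature sequences of let-7 and miR-98 at 11 loci, and all had 1 seed. The 4 printed here show how the bases beyond the seed differ, with the seed in capitals.

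mmu-let-7a-5p: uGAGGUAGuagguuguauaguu
mmu-let-7d-5p: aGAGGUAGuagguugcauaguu
mmu-let-7g-5p: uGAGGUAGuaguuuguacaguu
mmu-miR-98-5p: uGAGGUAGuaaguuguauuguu

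The letters that pair with that seed, CTACCTC, were searched on the transcript strand in the longest annotated 3′ UTR of each coding gene (GENCODE M21, GRCm38). All 6 members held at least 1 match, where 9.03% of 21020 coding genes with a 3′ UTR did. Lin28b, Hmga2 and Igf2bp1 held 4 each, and Hmga1, Igf2bp2 and Igf2bp3 held 1 each. Having 3 or more was rare, at 0.152% of those genes. Long UTRs hold more matches by length alone. Among UTRs within 20% of the length of the member's own, 15.5% held a match for Hmga2, 24.2% for Lin28b, 33.6% for Igf2bp1, 12.02% for Igf2bp2, 13.3% for Igf2bp3 and 8.04% for Hmga1. Having at least 4 was seen in 0.0891% of UTRs of the length of Hmga2, 0.158% for Lin28b and 0.178% for Igf2bp1. A match is a stretch of letters, not a shown site of binding, and the members were known let-7 targets when they were chosen. Mature let-7 carries no poly-A tail and was not measured here.

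The matches that extend to 8 letters with a following A are shown, with the 1 match of Hmga1, since they allow the members to be compared. Capitals mark CTACCTC, and each position is on the minus strand of GRCm38 except that of Hmga1, which is on the plus strand. They lie at chr10:45381022-45381043 for Lin28b, chr10:120364224-120364245 for Hmga2, chr17:27563278-27563299 for Hmga1, chr16:22059473-22059494 for Igf2bp2 and chr6:49086787-49086808 for Igf2bp3. The 3 of Igf2bp1 lie at chr11:95961778-95961799, chr11:95959357-95959378 and chr11:95958763-95958784, for sites A, B and C.

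Lin28b: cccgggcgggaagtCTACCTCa
Hmga2: ccgacattcaatttCTACCTCa
Hmga1: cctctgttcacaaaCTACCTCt
Igf2bp1 site A: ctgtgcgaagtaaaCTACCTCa
Igf2bp1 site B: agcagtgctattaaCTACCTCa
Igf2bp1 site C: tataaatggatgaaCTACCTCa
Igf2bp2: cacacaaataaaagCTACCTCa
Igf2bp3: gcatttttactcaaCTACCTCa

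The seed match is shared, and the bases before it differ between the genes.

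Lin28b (chr10:45376620-45486395, minus strand) was detected early, at E10.5 and E11.5. Its capture mean was 6.92 RPKM at E10.5, then 3.42 and 3.33 RPKM in the captures of E11.5. From E12.5 on it was nearly gone, at 0.00885 and 0.00522 RPKM at E12.5, 0.00177 and 0.0140 RPKM at E13.5, and 0 and 0.00627 RPKM at E16.5. All captures of E12.5 to E16.5 lay below all captures of E10.5 and E11.5. Among genes tested, 2.56% were lower without overlap between those groups.

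No cell of the 244 at E12.5 to E16.5 reached 1 RPKM of Lin28b, which allows a share of up to 1.23%, counting error only. The highest of these cells had 0.496 RPKM. At E10.5 the share was 38.98% (23 of 59 cells, 95% Wilson interval 27.6% to 51.7%). At E11.5 it was 11.54% and 12.2%. The few E11.5 cells held high levels: 11 cells of 93 were at 1 RPKM or more, from 1.21 to 90.5 RPKM. A single cell gave 50.9% of the signal of the first E11.5 capture, and 1 cell gave 48.5% of that of the second. The mean within cells at 1 RPKM or more was 17.6 RPKM at E10.5 against 29.6 and 26.9 RPKM at E11.5, so such cells were fewer at E11.5 and their level was not lower.

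In the limma fit of capture means, on the log2(mean RPKM + 1) scale, Lin28b fell by 2.41 ± 0.40 (SE) in E12.5 to E16.5 against E10.5 and E11.5 (6 and 3 captures, Benjamini-Hochberg adjusted p = 0.0137). It was the 1 member of 6 called lower there, where 0.114% of all genes were (0.577% in either direction). At an unadjusted p under 0.05 3 of 6 were lower (Lin28b, Igf2bp1 and Hmga1), against 4.9% of genes. This call was lost without the E10.5 capture (adjusted p = 0.0803) or without the first E13.5 capture (adjusted p = 0.0508). Within the 10 M captures alone the Lin28b difference was -2.12 (adjusted p = 0.277), and within the 25 M captures alone it was -2.97 (adjusted p = 0.253). E12.5 against E11.5, the step after which no cell reached 1 RPKM, gave -2.12 ± 0.57 (unadjusted p = 0.00308, adjusted p = 0.386).

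At E10.5 Lin28b was found in several kinds of cell. Cells were grouped into 8 clusters by marker genes, which hold no member. The 11 E10.5 cells of the cluster led by Pcp4 and Pax8 averaged 12.7 RPKM, with 6 cells at 1 RPKM or more. The 12 cells of the cluster led by Taf7l and Upk3b averaged 8.55 RPKM with 4 such cells. Upk3b and Krt19, genes of the surface epithelium, were 2 of its 10 leading genes. The 33 cells led by Shisa3 and Vtn averaged 5.02 RPKM with 13 such cells. A single cell of 76.9 RPKM gave 74.98% of the signal of the Taf7l and Upk3b cluster, which averaged 2.33 RPKM without it. The other clusters averaged 10.4 and 3.30 RPKM without their highest cell. The E10.5 cells with Lin28b at 1 RPKM or more held Nr5a1 at that level in 12 of 23 cells, against 21 of 36 of the cells below it. Gata4 was at that level in 10 of 23 and 19 of 36. The germ cell genes Dppa3 and Dazl were at 0 in every E10.5 and E11.5 cell with and without Lin28b. They are 2 of 7 germ cell markers, and the list as a whole was not at 0. Summed over the 7, the capture mean was 1.22 RPKM at E10.5 and 3.85 and 0.190 RPKM at E11.5. In the first E11.5 capture 1 of the 7 averaged above 1 RPKM.

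Lin28a, the paralog that also blocks let-7 maturation, was highest at E10.5 and low from E11.5 on. It averaged 29.2 RPKM at E10.5, above Lin28b, with 57.6% of cells at 1 RPKM or more. It averaged 1.26 and 0.769 RPKM at E11.5, 0.377 and 1.59 RPKM at E12.5, and at most 0.00927 RPKM in any later capture. The 2 genes marked different cells in part: at E10.5 14 cells were at 1 RPKM or more of both, 20 of Lin28a alone, 9 of Lin28b alone and 16 of neither. Lin28a fell by 4.91 ± 0.76 in E13.5 against E10.5 (limma, adjusted p = 0.00873), a call lost without the first (0.0912) or the second E13.5 capture (0.0516). Of its 4 cells at E12.5, 2 were germ-cell-like.

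**Figure D1:**
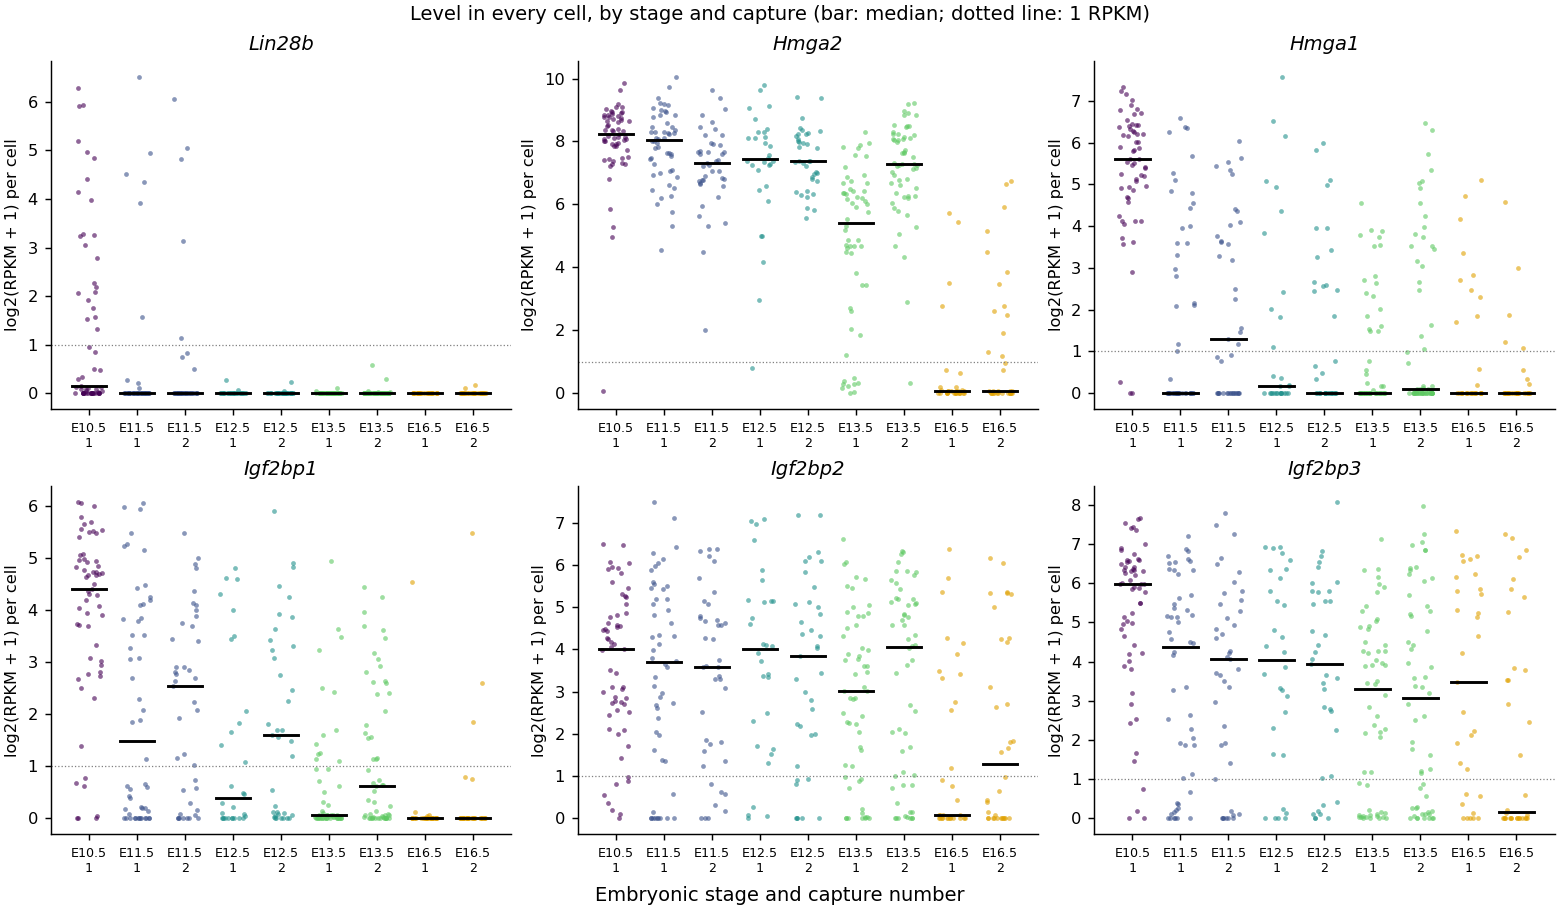
Level of each member in every cell, as log2(RPKM + 1), by embryonic stage and capture number; each point is 1 cell, bars are medians and the dotted line is 1 RPKM. Lin28b points above the line end after E11.5, Hmga2 drops at E16.5, and Igf2bp3 cells stay high in part at every stage.

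Hmga2 (chr10:120361275-120476469, minus strand) was by far the most abundant member through E13.5 and lost most of its message between E13.5 and E16.5. Its capture mean was 326 RPKM at E10.5, 298 and 203 RPKM at E11.5, 242 and 214 RPKM at E12.5, 66.4 and 201 RPKM at E13.5, and 3.63 and 10.8 RPKM at E16.5. Both E16.5 captures lay far below all others, an order that was not counted over all genes. The mean of the E16.5 captures was 5.40% of that of E13.5 and 3.17% of that of E12.5. The change was in most cells: the median cell had 298 RPKM at E10.5 and 156 RPKM in the second E13.5 capture, but 0.0414 and 0.0581 RPKM at E16.5.

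The share of cells with Hmga2 at 1 RPKM or more was 83.9% to 100% in the captures of E10.5 to E13.5 and 12.9% (4 of 31 cells, Wilson 5.13% to 28.9%) and 38.2% (13 of 34, 23.9% to 54.96%) at E16.5. The E16.5 cells that kept it averaged 27.7 and 28.1 RPKM, against 79.1 and 205 RPKM in such cells at E13.5. The 2 captures of E13.5 lay furthest apart (SD 95.2 RPKM), and the lower was the medium chip. Its median cell had 41.9 RPKM, and 71.4% of its cells were at 10 RPKM or more, against 96.4% in the other.

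In limma Hmga2 fell by 3.98 ± 0.53 in E16.5 against E13.5 (2 captures each, adjusted p = 0.0167), where 0.0569% of all genes were called lower (0.0893% in either direction). It was the 1 member of 6 called, and also the 1 lower at an unadjusted p under 0.05, against 4.34% of genes. It fell by 4.95 ± 0.53 against E12.5 (adjusted p = 0.00284, 0.106% of genes called lower, 0.357% in either direction) and by 5.06 ± 0.53 against E11.5 (adjusted p = 8.13e-04, 0.528% of genes called lower, 1.52% in either direction). Against E12.5 4 of 6 members were lower at an unadjusted p under 0.05 (Hmga2, Igf2bp2, Hmga1 and Igf2bp1), against 6.07% of genes. These comparisons share the E16.5 captures. E16.5, E12.5 and E11.5 share their labelled depth and chip size, while E13.5 was sequenced deeper. Among 12313 genes, the difference of Hmga2 ranked 2 from the lowest against E12.5, 5 against E13.5 and 10 against E11.5. The call against E13.5 was lost without the first or the second E12.5 capture, the second E13.5 capture, or either E16.5 capture (adjusted p of 0.0513 to 0.158), while the difference stayed between -3.19 and -4.77 when any capture was left out. The call against E12.5 was lost without the first E12.5 capture (adjusted p = 0.0647). Between the earlier stages Hmga2 moved less: -0.40 ± 0.65 in E11.5 against E10.5, -0.11 ± 0.53 in E12.5 against E11.5 and -0.97 ± 0.53 in E13.5 against E12.5, none called.

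Hmga1 (chr17:27556497-27563674, plus strand) was high at E10.5 and lower from E11.5 on. It averaged 56.1 RPKM at E10.5, 12.2 and 10.49 RPKM at E11.5, 15.2 and 6.99 RPKM at E12.5, 2.45 and 8.81 RPKM at E13.5, and 3.56 and 1.05 RPKM at E16.5. The E10.5 capture stood above all 8 others, and the captures of E11.5 and E12.5 overlapped. How many of all genes were highest in the E10.5 capture was not counted. Cells at 1 RPKM or more made up 94.9% at E10.5, 44.2% and 53.7% in the E11.5 captures and 32.3% and 14.7% in those of E16.5. Single cells weighed on the later means: 1 cell gave 41.5% of the signal of the first E12.5 capture. Hmga1b, a near copy of Hmga1 on chromosome 11, has no row of its own. Whether reads shared by the copies were counted together or left out is not known, so the level of Hmga1 may be off. Hmga1 in E11.5 against E10.5 gave -2.21 ± 0.82 (unadjusted p = 0.0203, adjusted p = 0.614). It ranked 58 from the lowest among 12313 genes in that step. No member was called there, where 0.00812% of all genes were called lower (1 gene, and 0.39% in either direction), and Hmga1 was the only member of 6 lower at an unadjusted p under 0.05, as were 1.63% of genes. With 1 capture at E10.5, the fit took its spread to be that of later stages.

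**Figure D2:**
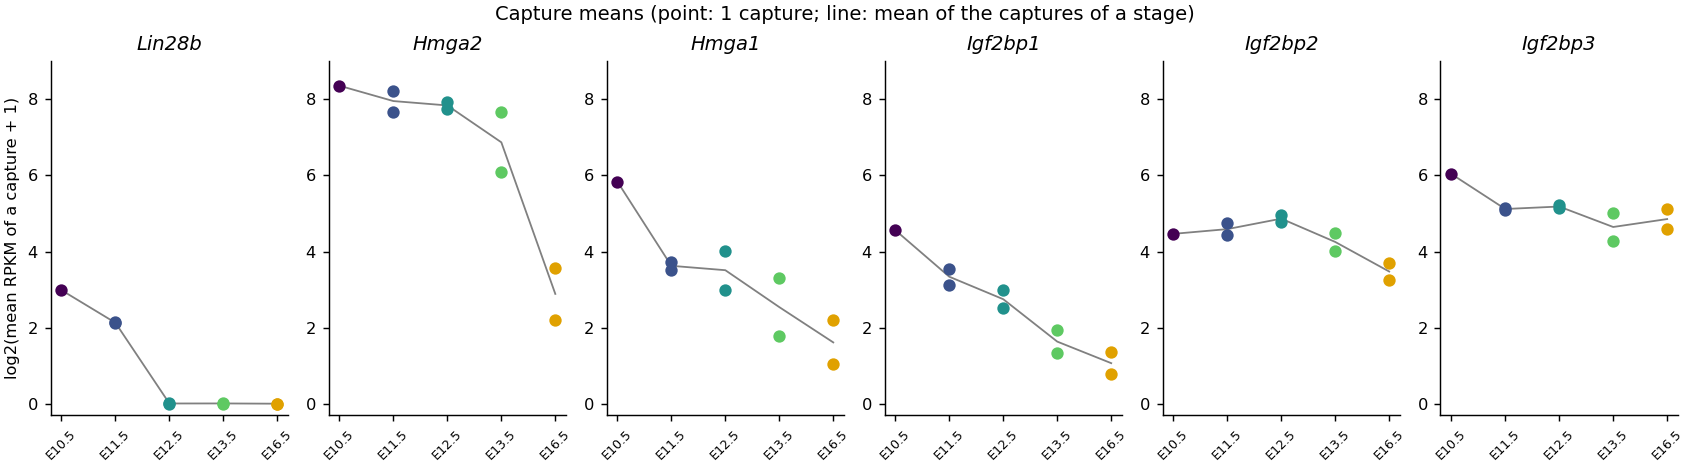
Capture means of the 6 members as log2(mean RPKM + 1), by embryonic stage; each point is 1 capture and the line joins the means of the captures of a stage. Lin28b drops to the floor between E11.5 and E12.5, Hmga2 falls at E16.5, Hmga1 and Igf2bp1 descend over the whole series and Igf2bp3 varies least after E10.5.

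Igf2bp1 (chr11:95957163-96005940, minus strand) had a lower stage mean at each stage than at the one before. It averaged 22.6 RPKM at E10.5, 10.7 and 7.74 RPKM at E11.5, 4.68 and 6.94 RPKM at E12.5, 1.51 and 2.84 RPKM at E13.5, and 0.718 and 1.56 RPKM at E16.5. All 6 captures of E12.5 to E16.5 lay below the 3 earlier ones, as was so for 2.56% of genes tested. In share of cells at 1 RPKM or more the groups overlapped, with up to 59.5% in later captures and as little as 51.9% in earlier ones. At E16.5 the signal came from very few cells: 4 of 65 were at 1 RPKM or more, and 1 cell gave 99.2% of the signal of the first capture and 1 gave 82.8% of that of the second. The gene was at 1 RPKM or more in 88.1% of E10.5 cells. E12.5 to E16.5 against E10.5 and E11.5 gave -1.93 ± 0.54 (limma, unadjusted p = 0.00288, adjusted p = 0.155), and E13.5 against E10.5 gave -2.93 ± 0.74 (adjusted p = 0.111), so neither was called.

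Igf2bp2 (chr16:22059009-22163299, minus strand) stayed between 15.2 and 29.9 RPKM until E13.5. It averaged 21.1 RPKM at E10.5, 25.7 and 20.7 RPKM at E11.5, 29.9 and 26.4 RPKM at E12.5, 15.2 and 21.4 RPKM at E13.5, and 8.52 and 11.98 RPKM at E16.5. The E16.5 captures were below all others, and the share of all genes in that order was not counted. The share of cells at 1 RPKM or more was 75% to 86.7% until E13.5 and 38.7% and 50% at E16.5. E16.5 against E12.5 gave -1.39 ± 0.44 (unadjusted p = 0.00800, adjusted p = 0.207).

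Igf2bp3 (chr6:49085223-49214957, minus strand) was highest at E10.5. It averaged 64.7 RPKM at E10.5, 33.3 and 34.1 RPKM at E11.5, 36.3 and 34.3 RPKM at E12.5, 18.5 and 31.1 RPKM at E13.5, and 33.8 and 22.99 RPKM at E16.5. Both E13.5 captures lay below those of E11.5 and E12.5. Both E16.5 captures lay below those of E12.5, the closest at 33.8 against 34.3 RPKM. The E16.5 captures overlapped those of E11.5 and E13.5. Such orders were not counted over all genes. At E16.5 it was the most abundant member, with a stage mean of 28.4 RPKM against 10.3 RPKM for Igf2bp2 and 7.22 RPKM for Hmga2. E16.5 against E11.5 gave -0.26 (95% interval -1.14 to 0.62), so a fall or a rise within those bounds remains compatible with the values. Its median cell differed between the E16.5 captures, at 10.1 and 0.126 RPKM.

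The order of the members by level differed between the first and the last stage. At E10.5 it was Hmga2, Igf2bp3, Hmga1, Igf2bp1, Igf2bp2 and Lin28b, with Igf2bp1 and Igf2bp2 close, at 22.6 and 21.1 RPKM from 1 capture. At E16.5 it was Igf2bp3, Igf2bp2, Hmga2, Hmga1, Igf2bp1 and Lin28b. The capture ranges of Igf2bp2 and Hmga2 overlapped there, as did those of Hmga1 and Igf2bp1. The place of Hmga1 in both orders depends on how reads shared with its near copy were counted.

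Among stages of the same labelled depth, E13.5 can be set against E10.5. In E13.5 against E10.5, both at 25 M reads, 0 of 6 members were called by limma at an adjusted p under 0.05, where 0.106% of genes were called lower and 1.06% in either direction. At an unadjusted p under 0.05 5 of 6 were lower, against 2.91% of genes. Their differences were -3.29 for Hmga1, -2.97 for Lin28b, -2.93 for Igf2bp1, -1.49 for Hmga2 and -1.39 for Igf2bp3, and the median of all genes was 0.08. Igf2bp2 stood at -0.21. In E16.5 against E11.5, both at 10 M reads, Hmga2 alone was called, and 5 of 6 were lower at an unadjusted p under 0.05, against 6.52% of genes. Igf2bp3 was the exception there. In E12.5 against E11.5 limma called no gene (0%) and so no member, with 961 genes at an unadjusted p under 0.05. Lin28b was the 1 member of 6 lower at that level, against 3.88% of genes. In E13.5 against E12.5 limma called no gene either (0%), with 563 genes at an unadjusted p under 0.05, and 0 of 6 members were lower at that level, against 1.9% of genes. When log2 values were averaged over cells instead, 3 members were called lower in E13.5 against E10.5. In that fit 169 of 12313 genes were called lower and 238 in either direction.

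**Figure D3:**
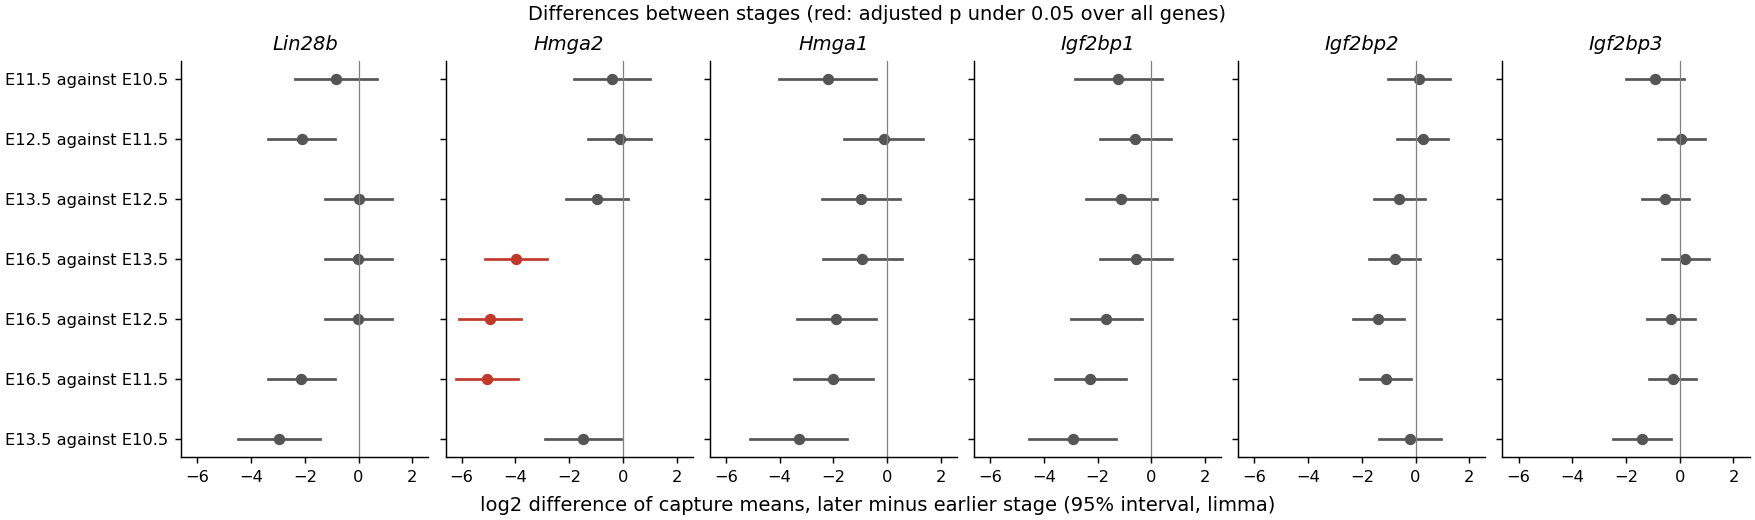
Differences of the 6 members between stages on the log2(mean RPKM + 1) scale, later minus earlier, as limma estimates with 95% intervals; red marks an adjusted p under 0.05 over all genes. The only red points are the 3 of Hmga2 with E16.5, between -3.98 and -5.06.

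The share of cells does not weigh single high cells. Averaged over captures, Lin28b was at 1 RPKM or more in 0% of cells in the 6 captures of E12.5 to E16.5 and in 20.9% ± 15.7 (SD) in the 3 captures of E10.5 and E11.5. For Hmga1 the shares were 32.1% ± 9.0 and 64.3% ± 26.96, and for Igf2bp1 29.3% ± 21.4 and 68.6% ± 18.3. The exact permutation test (two-sided, 84 splits of the captures) gave p = 0.0119 for Lin28b and for Hmga1, the smallest p this design allows, and p = 0.0357 for Igf2bp1. Those 3 of 6 members were lower at an exact p of 0.05 or less, against 6.55% of genes. Lin28b and Hmga1 did not overlap between the groups, against 3.27% of genes. This depended on the threshold. At 0.1 RPKM Hmga1 overlapped, while Lin28b and Igf2bp1 did not. At 10 RPKM none of these 3 overlapped. The share of all genes without overlap was not counted at those thresholds. Hmga2, Igf2bp2 and Igf2bp3 gave exact p of 0.131, 0.167 and 0.155. Adjusted over all 12313 genes no member passed, with 0.404 the lowest adjusted p. Without the E10.5 capture Hmga1 gave exact p = 0.107. Igf2bp1 passed in only 4 of 11 alternatives. It did not pass without the E10.5 capture (exact p = 0.143), the second E11.5 capture (0.107), the first E12.5 capture, or any capture of E13.5 or E16.5 (0.0536 to 0.0714).

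**Figure D4:**
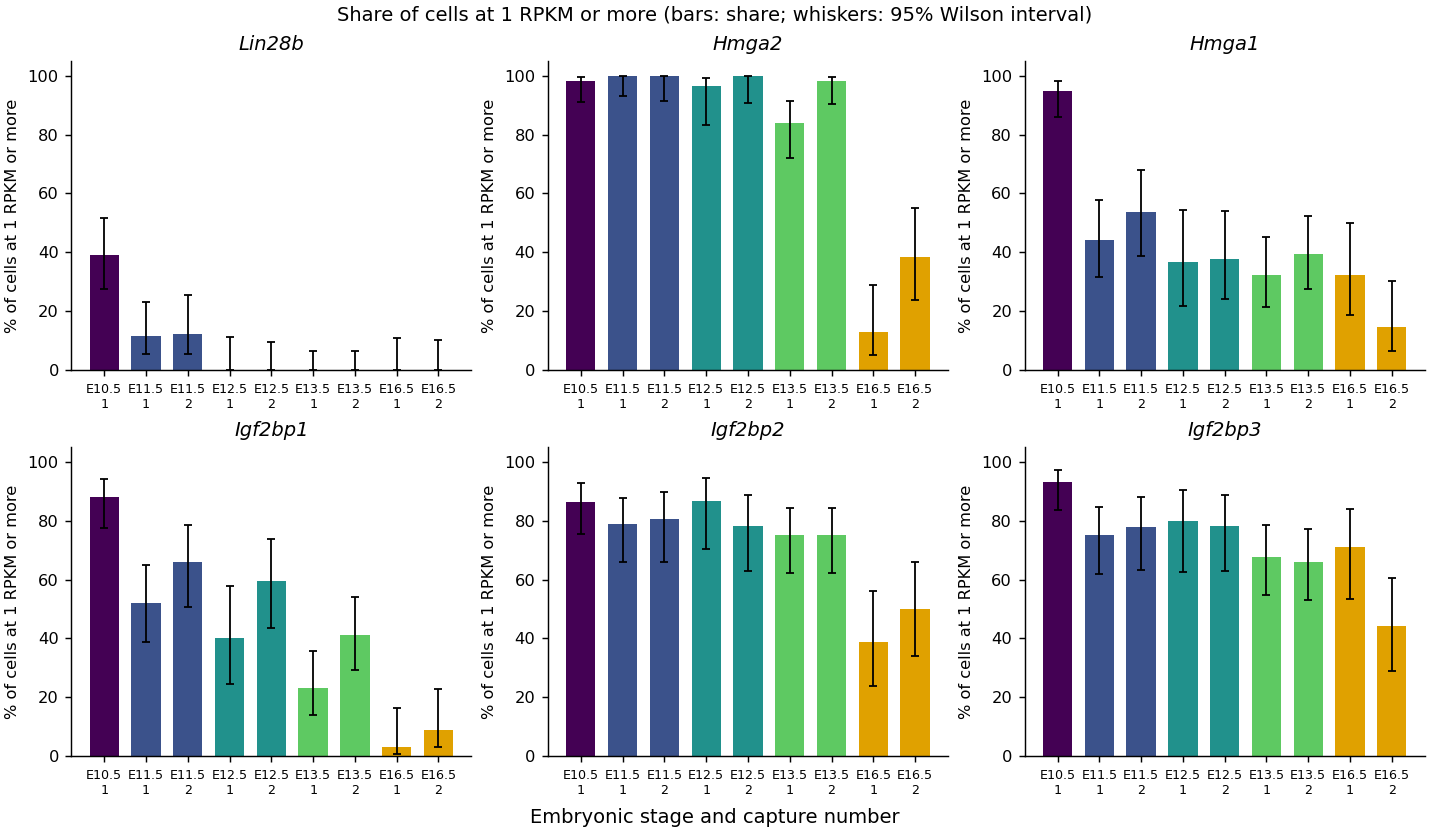
Share of cells at 1 RPKM or more of each member, in percent, by embryonic stage and capture number, with 95% Wilson intervals as whiskers. Lin28b is at 38.98% at E10.5 and 0% from E12.5 on, and Hmga2 stays at 83.9% or more until E13.5 and is at 12.9% and 38.2% at E16.5.

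Cells of later stages held fewer of the 6 members. The mean number of members at 1 RPKM or more in a cell was 5 of 6 at E10.5, then 3.62 and 3.90 members at E11.5, 3.40 and 3.54 members at E12.5, 2.82 and 3.20 members at E13.5, and 1.58 and 1.56 members at E16.5. All 6 together were seen only at E10.5, in 19 of 59 cells. At E16.5 15 of 31 and 17 of 34 cells held 0 or 1 of them. Fewer genes of any kind were also detected later. The median cell had 6503 detected genes in the E10.5 capture, against 4904.5 to 6349 in later captures. Labelled depth also dropped from 25 M to 10 M reads between E10.5 and E11.5. The capture with 6349 genes, the first of E13.5, was labelled 25 M and averaged 2.82 members. Whether detected genes or depth account for the lower number of members was not tested. Summed RPKM of the 20 genes of dividing cells was 1097 in the E10.5 capture, 551 and 492 in those of E11.5 and between 546 and 1095 in later ones, and its part in the result was not tested.

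From cell to cell within a capture the members were weakly related. Spearman correlations between 2 members over the cells of a capture ranged from -0.302 to 0.439 with a median of 0.0429, over 15 pairs and 30 to 59 cells each, leaving out the capture where Lin28b was at 0. They are descriptions of sparse values. Across the 9 capture means, which share stage, depth and run, Pearson correlations on the log2(mean + 1) scale ranged from 0.2998 for Lin28b with Igf2bp2 to 0.942 for Hmga2 with Igf2bp2. Lin28b was most like Igf2bp1 (0.834) and Hmga1 was most like Igf2bp3 (0.895).

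The genes most like each member over the 9 captures, among 9971 genes, were also listed. For Lin28b they were Crmp1, a neuronal cytoskeletal protein (Pearson 0.962), Cfl1, which severs actin filaments (0.949), and Lrwd1 (0.937). For Hmga2 they were Gpc3, a cell surface proteoglycan (0.978), the cadherin Cdh6 (0.977) and Atp5a1 (0.972). Cdh6 averaged 14.1 RPKM at E10.5, 2.06 and 7.66 RPKM at E13.5 and 0 and 0.0410 RPKM at E16.5. For Hmga1 they were Ywhae, Lypla1 and Psma3 (0.946 to 0.988), for Igf2bp1 Dennd5b, Mknk2 and Chd7 (0.959 to 0.969), for Igf2bp2 Cog6, Ctnna1 and Ecd (0.960 to 0.974), and for Igf2bp3 H2afy, Larp4 and Rfx3 (0.919 to 0.969). These values describe 9 points, chosen as the highest of many.

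Sertoli cells, the supporting cells of the testis cords, became frequent over the series. The Sertoli-like cluster, with 7 Sertoli markers among its 10 leading genes, held 0% of E10.5 cells, 7.53% of E11.5 cells, 11.9% of E12.5 cells, 24.1% of E13.5 cells and 49.2% of E16.5 cells. Stages were therefore also compared within Sertoli-like cells and within the remaining cells. Hmga2 was lower in Sertoli-like cells in every one of the 7 captures with at least 4 of them. How many of all genes were lower in all 7 was not counted. At E12.5 the 4 Sertoli-like cells of each capture averaged 127 and 205 RPKM, against 259 and 215 RPKM in the other cells. At E16.5 Sertoli-like cells averaged 0.0911 and 1.46 RPKM, against 7.93 and 18.2 RPKM in the other cells. At E13.5 they averaged 38.97 and 152 RPKM, against 79.4 and 211 RPKM. In the second E11.5 capture they averaged 141 RPKM, against 212 RPKM.

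In limma with the capture as a block, over the 5 captures with at least 5 Sertoli-like cells, Hmga2 gave -1.61 ± 0.46 in Sertoli-like against other cells (unadjusted p = 0.00449, adjusted p = 0.0752), with a median of -0.18 over all genes. None of 6 members was called, where 2.45% of genes were called lower and 4.12% in either direction, and Hmga2 alone was lower at an unadjusted p under 0.05, as were 12.9% of genes. With captures of 4 Sertoli-like cells added Hmga2 gave -1.31 and was called (adjusted p = 0.0453). More genes were called in that fit, with 724 of 12384 lower and 1013 in either direction. No other member passed the test. Hmga1 leaned the other way at E16.5, with 6.27 and 2.12 RPKM in Sertoli-like cells, against 0.282 and 0.212 RPKM in other cells, but its difference over the captures was 0.42 (95% interval -1.04 to 1.88). Igf2bp1 at E16.5 was at 1 RPKM or more in 0 of 32 Sertoli-like cells, and its 4 cells at that level were all in the other class.

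Hmga2 was lower at E16.5 than at E12.5 in Sertoli-like cells and in the other cells. The other cells are of several kinds, and their mix differed between the stages. At E16.5 13 of 14 and 14 of 19 of them were in the cluster led by Pdlim3 and Acta2. At E12.5 6 of 26 and 12 of 33 were. There 14 and 5 were in the cluster led by Taf7l and Upk3b, and 13 cells of the second capture were germ-cell-like. Within the Pdlim3 and Acta2 cluster Hmga2 averaged 8.54 and 13.2 RPKM at E16.5, against 408 and 184 RPKM at E12.5, with no test made. E16.5 against E12.5 gave -6.63 ± 0.85 within Sertoli-like cells (unadjusted p = 2.02e-04, adjusted p = 0.372) and -4.18 ± 0.56 within the other cells (unadjusted p = 4.13e-05, adjusted p = 0.125), with 2 captures a stage and 4 Sertoli-like cells in each E12.5 capture. No member was called in either, and limma called no gene lower within Sertoli-like cells (0% of genes, 1142 of 12128 at an unadjusted p under 0.05) and 0.00825% of genes lower within the other cells (0.0165% in either direction). The median of all genes was 0.27 within Sertoli-like cells. The difference between the 2 drops was -2.45 ± 1.01 (unadjusted p = 0.0421, adjusted p = 0.456) and was not called; no gene was (0%, with 1288 genes at an unadjusted p under 0.05). Lin28b was below the filter here, and 1 of 5 tested members was lower at an unadjusted p under 0.05 within Sertoli-like cells (2.17% of genes), 2 of 5 within the other cells (6.43% of genes; Hmga2 and Hmga1) and 1 of 5 in the difference (2.14% of genes).

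**Figure D5:**
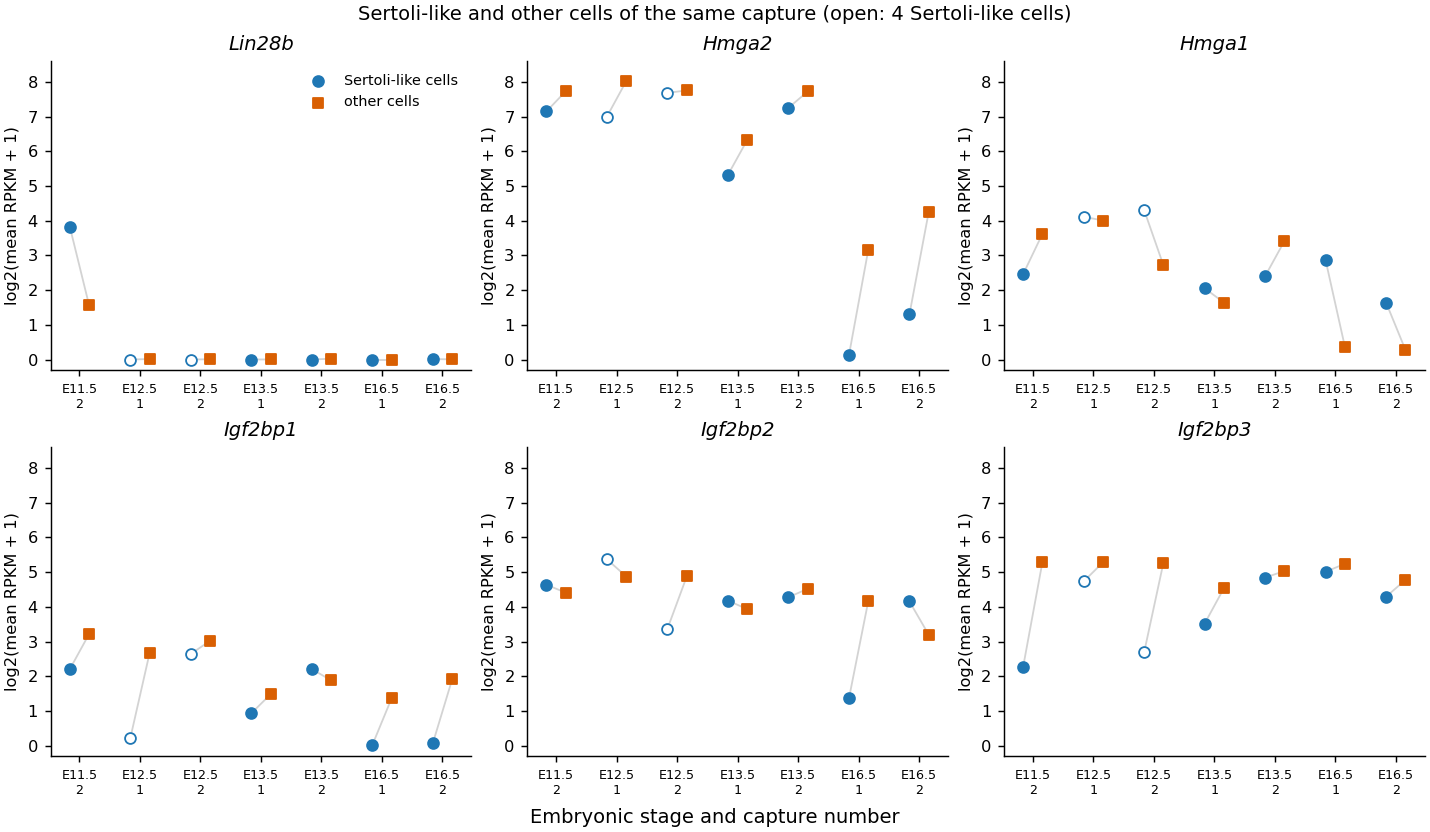
Mean level of each member in Sertoli-like cells (circles, open where only 4 cells) and in the other cells (squares) of the same capture, as log2(mean RPKM + 1), by embryonic stage and capture number. For Hmga2 the circle lies below the square in every capture, with a difference of only -0.07 in the second E12.5 capture, and both drop at E16.5.

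Beyond the members, few listed genes passed the test. Of 16 genes listed for LIN28 and let-7 processing 13 were tested. In E12.5 to E16.5 against E10.5 and E11.5 Lin28b was the only one called, and the list's median was -0.40, beside -0.01 over all genes. In E13.5 against E10.5 Lin28a was the only one called. Trim71, a ligase gene that is itself a let-7 target, averaged 13.7 RPKM at E10.5 and at most 0.661 RPKM in any later capture, so it was below the filter on low values and was not tested. Zcchc11, which adds uridines to precursors held by LIN28, stood at 13.9 to 29.1 RPKM in all captures, and Dicer1, which cuts the precursor, at 2.79 to 18.1 RPKM. Zcchc11 and Dicer1 were tested and not called.

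Of 30 listed let-7 targets 29 were tested, the 6 members included. In the same comparison of later and earlier captures 1 was called lower (Lin28b) and 1 higher (Gatm). A negative difference was seen in 23 of 29, all 6 members among them. The list's median, with the members counted, was -0.55, beside -0.01 over all genes. Gatm, an enzyme of creatine synthesis, rose by 3.32 ± 0.54 (adjusted p = 0.0137; 0.0541 without the E10.5 capture and 0.0508 without the first E13.5 capture; lost in 6 of 17 alternatives), with 139.4 and 101.4 RPKM at E13.5, against 3.32 RPKM at E10.5. Within the 10 M captures alone it gave 2.58 (adjusted p = 0.261), within the 25 M captures 4.79 (0.0946), with log2 values averaged over cells an adjusted p of 0.137 and with no filter on low values 0.165. It was also higher in Sertoli-like than in other cells, by 3.66 ± 0.34 (adjusted p = 3.35e-04), with 485 and 338 RPKM at E16.5, against 39.02 and 31.4 RPKM. Its 3′ UTR held 1 seed match. The target with most matches, Nr6a1, with 8, averaged 73.7 RPKM at E10.5 and 84.8 to 189 RPKM in every later capture, and was not called. Prtg, with 2 matches, averaged 21 RPKM at E10.5 and 0.00384 and 0.00422 RPKM at E16.5, and was not called either. In E16.5 against E11.5 1 of 29 was called lower (Hmga2) and 1 higher (Gatm), with a median of -0.81, beside -0.08 over all genes.

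Of 11 HMG chromatin proteins tested, with both members, Hmga2 was the only one called in E16.5 against E11.5, where the list's median was 0.33. Hmgb1, which had the highest mean over the captures, averaged 195 and 174 RPKM at E16.5, against 116.7 and 113.9 RPKM at E11.5. In Sertoli-like against other cells Hmgb3 was called, higher by 1.34 ± 0.27 (adjusted p = 0.0206, and 0.0656 to 0.0898 without either E13.5 or either E16.5 capture), with 119.3 and 135 RPKM, against 40.0 and 35.1 RPKM, at E16.5.

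Among messages known to be bound by IGF2BP proteins, Igf2 and Actb passed a test. In E16.5 against E11.5 1 of 7 tested was called lower: Igf2, the growth factor, fell by 2.34 ± 0.45 (adjusted p = 0.0247), with 25.3 and 10.7 RPKM at E16.5, against 91.5 and 84.3 RPKM at E11.5. That call was lost without either E11.5 capture (0.182 and 0.169) or without the second E16.5 capture (0.150). Actb, the cytoskeletal actin, fell by 1.66 ± 0.29 in E13.5 against E10.5 (adjusted p = 0.0177, but 0.125 with log2 values averaged over cells and 0.0854 with no filter on low values), with 1772 and 2652 RPKM, against 6853 RPKM. Both were also lower in Sertoli-like than in other cells (Igf2 by 2.41 ± 0.58, adjusted p = 0.0411; Actb by 0.64 ± 0.10, adjusted p = 0.00658, and 0.103 with no filter on low values), and the Igf2 call was lost without any 1 of the 5 captures (0.0536 to 0.130). The list of proteins that act with IGF2BPs or in stress granules, such as Ybx1 and Elavl1, held 10 genes. In E12.5 to E16.5 against E10.5 and E11.5 limma called none of them. All 10 had a negative difference, with a median of -0.45, beside -0.01 over all genes. How many of all genes had a negative difference was not counted.

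Of 11 growth genes tested, most of them imprinted, 4 were called lower in E16.5 against E11.5, where 0.528% of all genes were, and none higher, with a median of -1.02, beside -0.08 over all genes. Cdkn1c, an inhibitor of the cell cycle, fell by 3.96 ± 0.36 (adjusted p = 8.13e-04), with 24.9 and 24.7 RPKM at E16.5, against 367 and 440 RPKM at E11.5. Peg3 fell by 2.31 ± 0.34 (adjusted p = 0.00626, and 0.0724, 0.0702 and 0.0500 without the first or second E11.5 or the second E16.5 capture). Gpc3, which is X-linked and not imprinted, fell by 1.41 ± 0.30 (adjusted p = 0.0402, and 0.0633 to 0.260 without any 1 capture of E11.5, E12.5 or E16.5), and Igf2 is the fourth. In Sertoli-like against other cells 5 of 11 were called lower (Plagl1, Cdkn1c, Igf2, Mest and Gpc3), against 2.45% of all genes, with a median of -1.91, beside -0.18. Without the second E13.5 capture Cdkn1c, Mest and Plagl1 were not called (0.0561 to 0.0640). Of 4 tested genes of the Ink4a and Hmga2 partner list and of 20 genes of dividing cells none was called by limma in any comparison of stages, and Cenpe, a mitotic motor, was the 1 dividing-cell gene called in Sertoli-like against other cells, lower by 2.25 ± 0.49 (adjusted p = 0.0261, and 0.0564 to 0.116 without either E13.5 or either E16.5 capture).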

How the data were processed

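The authors deposited RPKM per gene and cell for 16459 genes and 400 of 435 labelled cells (35 cells not analysed here); the values themselves gave the unit, which no label states. The submitters' processing notes name GRCm38.p3 and mm10; for aligner and counter, not given in the sources used here. RPKM holds no depth, so depth was estimated from the smallest step times GENCODE M21 exonic length (15900 symbols matched). In the median cell 57.0% of values up to 20 reads were whole within 0.05, too few to recover counts, so a count test was not used.

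Cells under 3000 detected genes (3, all E16.5) were left out. In the second capture of E12.5, wells 49 and 56 correlated at 0.998 (next pair 0.701) and were averaged into 1 cell. Capture means were fitted as log2(mean + 1) with limma 3.58.1 (trend, robust) in R 4.3.3, on genes with a mean of 1 RPKM in at least 2 captures (12313). A fold change on that scale understates low genes. Late and early captures were 2 groups, stages a factor of 5 levels, and Sertoli-like cells a class blocked by capture. P-values were adjusted by Benjamini-Hochberg over all genes, threshold 0.05. Captures are described as independent, with no word on which embryos each held, so p-values measure the spread between captures. No column lacked a sample (0). Cells were clustered by Ward linkage on marker genes into 8 clusters; doublets were not removed. The change within classes used a minimum of 4 cells in place of 5, chosen after seeing the data, since E12.5 captures held 4. Intervals on shares cover counting error only. The fits were also run on simulated data with independent normal noise for each gene. Those data held no effect of depth, chip or single high cells, so they cannot show how the fits handle these. Named genes were all members, called members of each list (up to 4), otherwise up to 2 with the highest levels or those set beside them, and the 3 genes most like each member; Trim71, Dicer1, Prtg, Elavl1 and Gata4 were named after their values were seen. The members and lists were chosen with earlier results of these data known.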

Additional observations from a re-analysis of the deposited data

Results flagged for a closer look

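The share of cells with Hmga1 at 1 RPKM or more was 14.7% in the second E16.5 capture, far from the 32.1% to 39.3% of the other 5 captures of E12.5 to E16.5. It was the 1 value that stood apart from its group among 11 measures of the members tested this way, where chance gives about 1 in 20. The median cell of this capture had 4904.5 detected genes, the fewest of the 9 captures. The share of cells with Igf2bp3 was also lowest there, at 44.1%. Their part in the result was not tested.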

How the results depend on the processing

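No difference that was called, and no difference in share, reversed its direction under any alternative tried. Of 1213 differences of members and called list genes recomputed, 27 changed sign, all of members with an unadjusted p of 0.289 or more. With log2 values averaged over cells, Igf2bp2 gave -0.24 in E11.5 against E10.5 and 0.034 in Sertoli-like against other cells, and Igf2bp3 gave -0.18 in E16.5 against E13.5 and -0.79 in E16.5 against E12.5 within Sertoli-like cells. In the difference between the classes Hmga1 then gave -0.77, Igf2bp1 0.14 and Igf2bp3 -0.012. With minor clusters left out, Igf2bp2 gave -0.024 in E11.5 against E10.5, Hmga1 0.011 in E12.5 against E11.5 and Lin28b -0.00095 in E13.5 against E12.5. Leaving out 1 capture crossed 0 for Igf2bp2 in E11.5 against E10.5 (-0.025 to 0.27), E13.5 against E10.5 (-0.45 to 0.021), Sertoli-like against other cells (-0.64 to 0.30) and the difference between the classes (-2.30 to 1.47). It did so for Igf2bp3 in E16.5 against E11.5 (-0.53 to 0.0041), against E13.5 (-0.15 to 0.57) and against E12.5 within Sertoli-like cells (-0.079 to 1.97). It also did for Hmga1 in E12.5 against E11.5 (-0.63 to 0.40) and in Sertoli-like against other cells (-0.10 to 0.82), for Hmga2 in E12.5 against E11.5 (-0.39 to 0.16), for Igf2bp1 in the difference between the classes (-1.21 to 0.86), and for Lin28b in E13.5 against E12.5 (-0.0076 to 0.0099) and E16.5 against E13.5 (-0.016 to 0.0020). Further, 144 of 162 counts of members called lower stayed the same, but many had little room to move. No member was called lower in any fit of E12.5 against E11.5 or E13.5 against E12.5. The same held for E16.5 against E12.5 within Sertoli-like cells and for the difference between the classes. In these comparisons the main fits called 0 genes and the alternatives 0 to 36. The refits with 6 and with 12 clusters called 494 genes, as the main fit did. With no filter on low values, 0 members were called in E16.5 against E13.5 and in E16.5 against E12.5. In E13.5 against E10.5 1 member was then called, where 190 of 16456 genes were called lower. In E16.5 against E11.5 the 1 call was then Lin28b (adjusted p = 0.0426), with Hmga2 at 0.0910, where 11 of 16456 genes were called lower. With log2 values averaged over cells, 2 members were called in E11.5 against E10.5, 3 in E13.5 against E10.5 and 3 in E16.5 against E11.5. In E16.5 against E12.5 within the other cells 1 was called. All genes called lower in these comparisons were, in the same order, 82, 169 and 193 of 12313, then 11 of 12128. Within the 10 M or the 25 M captures alone, 0 were called for E12.5 to E16.5 against E10.5 and E11.5. With at least 4 cells in a class, 1 was called lower in Sertoli-like against other cells, where 724 of 12384 genes were. The causes were not tested. Leaving out 1 capture gave 0 to 1 members called for E12.5 to E16.5 against E10.5 and E11.5, for E16.5 against E13.5 and for E16.5 against E12.5. The difference in share then ranged from -42.1 to -16.8 points for Hmga1 and from -47.7 to -29.6 points for Igf2bp1. At 10 RPKM Igf2bp3 passed too (-17.4 points, exact p = 0.0476). The number of all genes called moved more. It was 71 for E12.5 to E16.5 against E10.5 and E11.5 (4 to 83 over the alternatives that keep all captures, 0 within either labelled depth, and 0.124% to 0.928% of genes, against 0.577%, when 1 capture was left out). Over all alternatives it was 48 for E11.5 against E10.5 (6 to 205), 131 for E13.5 against E10.5 (41 to 257), 11 for E16.5 against E13.5 (0 to 72), 44 for E16.5 against E12.5 (4 to 243), 187 for E16.5 against E11.5 (27 to 497) and 494 for Sertoli-like against other cells (3 to 1060). With no filter on low values, 18 of 20 calls of list genes that are not members were lost. The fits without a cell filter, within one labelled depth, with 4 cells in a class, and those between single stages without minor clusters were chosen after seeing the data. No paired analysis was possible because the capture numbers of different stages name separate captures. Having 2 captures a stage and 1 at E10.5 limits what could be called.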
